A study of Ovis aries with 6 samples.

Results

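NR1H3 and PPARG encode nuclear receptors that bind lipids. Their transcripts were followed in the milk somatic cells of sheep on a control diet and then on a linseed supplement. Members were the rows of the deposited table whose RefSeq accession, with its version ignored, carries the symbol NR1H3 or PPARG. There were 4 such transcripts among 49705 in all, 1 of NR1H3 (XM_012096370.2) and 3 of PPARG (NM_001100921.1, XM_015102096.1 and XM_015102095.1). The reference used for names lists 15 transcripts of NR1H3 and 14 of PPARG, and 31.9% of all rows matched a symbol. Other transcripts of either gene may thus stand among the unmatched rows. The study sampled 3 Comisana ewes, a dairy breed, with day 90 of lactation given for every library. For the control libraries the ewes ate hay with a commercial concentrate for 3 weeks. For the linseed libraries the same ewes then ate, for another 3 weeks, hay and a concentrate holding extruded linseed at 20% of dry matter. Each library was made from the cells of 250 ml of milk, giving 3 control and 3 linseed libraries. Linseed came second in every ewe, so diet and time cannot be told apart. As the diets followed each other, day 90 cannot hold exactly for both, and the day of each sampling is uncertain.

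Nuclear receptors are transcription factors that are switched by small fat-soluble molecules. NR1H3, the liver X receptor alpha (LXRα), binds oxysterols, which are oxidised forms of cholesterol, and turns on genes that export cholesterol and make fatty acids; it is known from liver, fat and macrophages. PPARG, the peroxisome proliferator-activated receptor gamma, binds fatty acids and their derivatives, among them products of the n-3 fatty acids that linseed supplies. It drives fat cell formation, acts in lipid-handling macrophages and has been studied as a regulator of milk fat synthesis in ruminants. Both work on DNA as a pair with a retinoid X receptor (RXR), and both switch between coactivator and corepressor proteins when a ligand binds.

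Levels are given in RPKM, reads scaled to transcript length and to the library total, so they can be compared between transcripts of different length. Reads behind each value were solved from the steps between low RPKM values, and the 6 libraries held 4941935 to 22644050 reads. Control sheep 1 was the deepest library and linseed sheep 1 the shallowest. Immune and epithelial markers were both detected in every library: summed macrophage markers ran from 237.1 to 5181 RPKM, neutrophil markers from 421.8 to 3188 RPKM and mammary epithelial markers from 97.6 to 943.5 RPKM. Milk protein transcripts took 1.30% to 48.1% of the reads. Marker levels thus differed widely between libraries, and in bulk RNA fewer cells of a type and less RNA per cell cannot be told apart.

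NR1H3, by its 1 matched transcript, was scarcely detected on the control diet and was detected in every linseed library. Its level was 0, 0.26 and 0.21 RPKM in control sheep 1, 2 and 3, from 0, 4 and 4 reads. With linseed it was 1.61, 2.09 and 1.97 RPKM in the same sheep, from 14, 22 and 69 reads. All linseed libraries lay above all control libraries, and the spread within the linseed group was small, with a mean of 1.89 ± 0.25 RPKM (SD, n = 3) against 0.16 ± 0.14 in controls. The 95% Poisson intervals, which cover counting error only, reached at most 0.66 RPKM in a control library and began at 0.88 RPKM or higher in the linseed libraries. The 0 reads of control sheep 1 came from the deepest library, where 3 reads would have been 0.0752 RPKM.

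**Figure D1:**
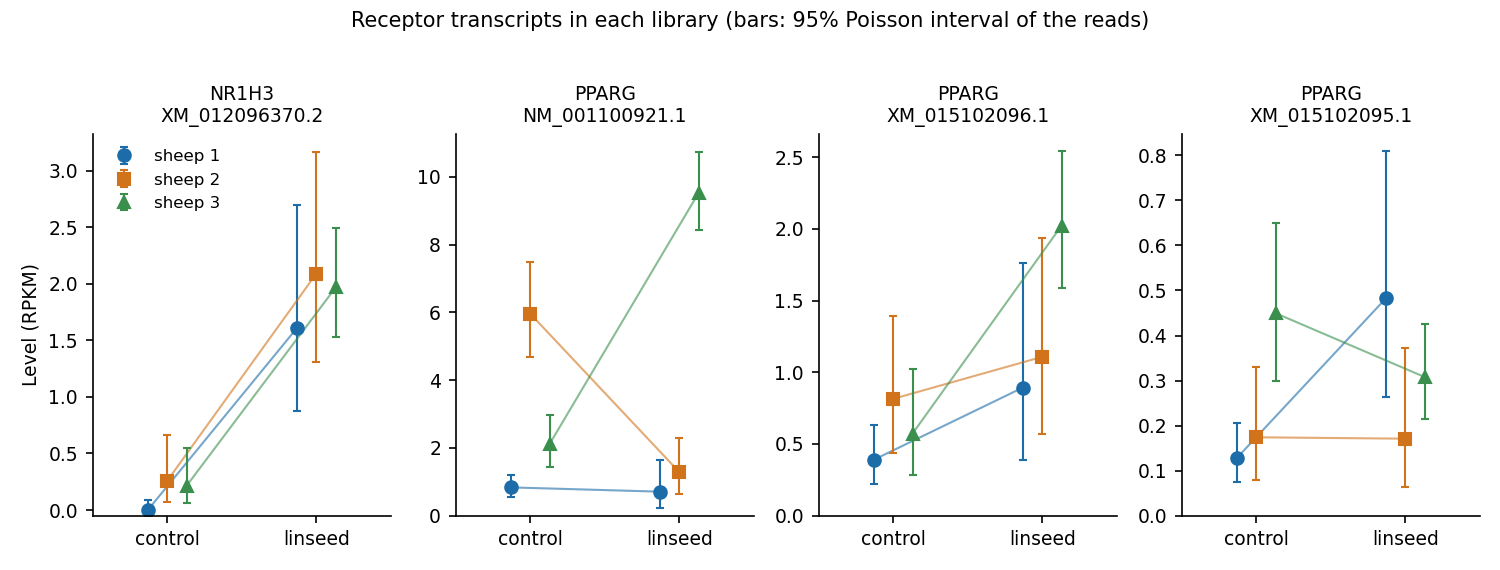
Level in RPKM (y axis) of the 4 receptor transcripts on the control and linseed diets (x axis), 1 point per library with lines joining the libraries of a sheep and bars for the 95% Poisson interval of the reads. NR1H3 was higher with linseed in each of the 3 sheep, whereas linseed PPARG NM_001100921.1 lay below control in sheep 1 and 2 but above it in sheep 3.

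Within sheep, NR1H3 was at least 21.4-fold higher with linseed in sheep 1, taking 3 reads as the floor of its control library, 8.10-fold higher in sheep 2 and 9.18-fold higher in sheep 3. Summed over each diet, NR1H3 had 8 reads in 42052556 control reads and 105 in 30832957 linseed reads, a ratio of 17.9 with a 95% interval of 8.76 to 42.5 that covers counting error only.

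The change of NR1H3 was 1.32 ± 0.43 (SE, n = 3 per diet) on the scale of log2(RPKM + 1), with a 95% interval of 0.38 to 2.27. It was 1.38, 1.30 and 1.29 in sheep 1, 2 and 3. In limma over the 15891 transcripts averaging 1 RPKM or more, this gave an unadjusted p of 0.0105 and an adjusted p of 0.263, so NR1H3 did not pass the threshold of 0.05. NR1H3 passed the filter only through its linseed values, and without the filter its adjusted p in limma was 0.596. With the sheep as a block, the adjusted p in limma was 0.0877. Without the block limma called 0% of tested transcripts higher and 0% lower, while 8.5% were higher and 7% lower at an unadjusted p under 0.05, and NR1H3 ranked 611 by p. With the sheep as a block 1.28% were called higher and 1.34% lower. Among all tested transcripts, 13.3% had linseed values entirely above the control values, as NR1H3 did. A two-sided exact permutation test of NR1H3 gave p = 0.1, the smallest that 3 libraries against 3 allow. That test ignores that the same ewes gave both diets. Exact sign flips within sheep, which keep the pairing, gave p = 0.25, the smallest that 3 sheep allow.

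The size of the NR1H3 difference depended on the scale, because its control values were near 0. The added 1 in log2(RPKM + 1) holds low values together: with 0.1 in its place the log2 change was 3.14 ± 1.08, and with voom on the solved reads it was 4.68 ± 1.41.  NR1H3 stood at a mean of 1.02 RPKM over the 6 libraries, just inside the filter of 1 RPKM, and only 0.787% of tested transcripts had a lower mean. A transcript that passes through one diet alone had to differ between diets. Of the 4 receptor transcripts 2 passed the filter, NR1H3 and PPARG NM_001100921.1.

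PPARG went different ways in different sheep. Its most abundant transcript, NM_001100921.1, was at 0.83, 5.96 and 2.11 RPKM in control sheep 1, 2 and 3, from 27, 75 and 32 reads. With linseed it was at 0.71, 1.29 and 9.53 RPKM, from 5, 11 and 271 reads. Linseed sheep 3 was the highest library, control sheep 2 the next, and the diets overlapped. The transcript was 4.63-fold lower with linseed in sheep 2 and 4.51-fold higher in sheep 3, and in both sheep the Poisson intervals of the 2 diets did not overlap. In sheep 1 the intervals overlapped, at 0.55 to 1.21 RPKM on the control diet and 0.23 to 1.65 RPKM with linseed.

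The mean of PPARG NM_001100921.1 was 2.97 ± 2.67 RPKM on the control diet and 3.84 ± 4.93 on linseed (SD, n = 3), so the spread between sheep exceeded the difference between diets. On the log2 scale the change was 0.02 ± 0.78 (SE), with a 95% interval of -1.70 to 1.73 and an adjusted p of 0.993 in limma. The interval spans large changes in either direction, so it does not show that PPARG was the same on both diets. The sign rested on single libraries: the change was -0.79 without linseed sheep 3, -0.43 without control sheep 1, -0.050 without control sheep 3, and 0.53 without control sheep 2.

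The other PPARG transcripts were rarer and did not follow the first. XM_015102096.1 was at 0.39, 0.81 and 0.57 RPKM in control sheep 1, 2 and 3 (16, 13 and 11 reads) and at 0.89, 1.11 and 2.02 RPKM with linseed (8, 12 and 73 reads). Its linseed values all lay above its control values, by a small margin between linseed sheep 1 and control sheep 2. Among tested transcripts 13.3% had linseed values entirely above the control values. The intervals of the 2 diets overlapped in sheep 1 and 2 and were apart in sheep 3. Its mean over the 6 libraries, 0.97 RPKM, fell just under the filter. In limma without a filter its log2 change was 0.53 ± 0.41 (SE) with an adjusted p of 0.687. The two-sided exact permutation p, which ignores the pairing by sheep, was 0.1, and exact sign flips within sheep gave p = 0.25. Each is the smallest its test allows.

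XM_015102095.1, the longest of the 3 at 5872 nt, was at 0.13, 0.17 and 0.45 RPKM in controls and at 0.48, 0.17 and 0.31 RPKM with linseed. Its linseed value lay above control in sheep 1, where the intervals were apart, and at or below it in sheep 2 and 3, where they overlapped. In limma without a filter its log2 change was 0.08 ± 0.19 (SE), with an adjusted p of 0.883.

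The make-up of PPARG RNA varied between libraries. NM_001100921.1 held 61.7%, 85.8% and 67.4% of the RPKM of the 3 PPARG transcripts in the control libraries of sheep 1, 2 and 3, then 34.0%, 50.2% and 80.3% on linseed. The linseed share was the smaller one in sheep 1 and 2 and the larger one in sheep 3. Summed over the 3 transcripts, PPARG was at 1.35, 6.95 and 3.14 RPKM in controls and at 2.08, 2.57 and 11.9 RPKM with linseed, a log2 change of 0.29 ± 0.73 (SE; adjusted p = 0.863 in limma). These shares depend on how the authors divided reads among overlapping transcripts, which is not given in the sources used here. In the reference used for names, PPARG also overlaps a long non-coding RNA gene, LOC132658193, whose reads cannot be told apart from those of PPARG if strand was not used.

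The order of NR1H3 and PPARG NM_001100921.1 by level differed between diets in 2 of the 3 sheep, within counting error. Summed over its 3 matched transcripts, PPARG stood above the 1 matched NR1H3 transcript in every library, with 2.08 against 1.61 RPKM in linseed sheep 1. In linseed sheep 2 it had 2.57 against 2.09 RPKM. PPARG NM_001100921.1 stood above NR1H3 in all 3 control libraries, with NR1H3 at 0, 0.0432 and 0.101 of its level in sheep 1, 2 and 3. With linseed NR1H3 was at 2.27 and 1.62 times the level of this PPARG transcript in sheep 1 and 2, where the Poisson intervals overlapped. In sheep 3 it was at 0.206 times, and the intervals were far apart. The log2 level of NR1H3 minus that of PPARG was -0.88, -2.47 and -1.36 in controls and 0.61, 0.43 and -1.83 with linseed. The shift between diets was 1.31, with a two-sided exact permutation p of 0.3, so the receptors were not shown to change by different amounts. Within sheep 3 the shift was -0.47, and without linseed sheep 3 the shift between diets was 2.09. Its two-sided exact permutation p was 0.1, the smallest possible with a library left out, so it adds no support. That test also ignores the pairing by sheep.

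Of the related receptors, only NR1H2 was measured well. NR1H2, the liver X receptor beta found in most tissues, averaged 36.0 ± 19.5 RPKM on the control diet and 57.1 ± 18.3 on linseed (SD, n = 3), far above NR1H3 in every library. It was higher in all 3 sheep, as were 23% of tested transcripts, and its log2 change of 0.74 ± 0.63 (SE) had an adjusted p of 0.563 in limma. The retinoid X receptor gamma gene RXRG was at 0.27 ± 0.23 and 0.38 ± 0.25 RPKM, below the filter. RXRA, RXRB, PPARA and PPARD had no matched transcript, so they are not analysed here.

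Summed macrophage and neutrophil markers, like NR1H3, were higher in all linseed libraries than in all control libraries. Single markers went both ways. In all 3 sheep, 7 of 14 tested macrophage markers were higher and 3 lower. For neutrophil markers these counts were 4 and 0 of 6 tested. As a background, 23% of tested transcripts rose in every sheep and 26.2% fell in every sheep. Beside these shares both marker lists leaned upward, a lean that was not tested. The 15 matched macrophage markers of 21 summed to 237.1, 2065 and 1475 RPKM in control sheep 1, 2 and 3 and to 2520, 3093 and 5181 RPKM with linseed, with none of them at 0 in all libraries. TYROBP, a signalling adaptor of myeloid cells, led them at 448.8 ± 350.2 and 1852 ± 593.8 RPKM (SD, n = 3), followed by the lysosomal protein gene CD68 at 250.2 ± 159.7 and 630.6 ± 278.9. The protease gene CTSS had 283.2 ± 218.8 and 280.6 ± 396.4. Per 1000 RPKM of macrophage markers, NR1H3 was at 0, 0.125 and 0.145 RPKM in controls and 0.638, 0.675 and 0.380 with linseed. These ratios rest on a few abundant markers, and the diets did not overlap in them. Single markers would give other ratios, and not all of them part the diets. NR1H3 was at 0.21 RPKM beside 13.5 RPKM of TREM2 in control sheep 3. In linseed sheep 1 it was at 1.61 RPKM beside 304, a lower ratio, so the diets overlapped against TREM2. TREM2 was at 6.75, 83.0 and 13.5 RPKM in controls and 304, 257.6 and 276.9 RPKM with linseed. The adjusted p of TREM2 in limma was 0.263 without the block and 0.0401 with it. MRC1, lower in all 3 sheep, was at 2.77, 7.36 and 12.4 RPKM and then 0, 1.23 and 5.73 RPKM.

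The 6 matched neutrophil markers of 11 summed to 421.8, 782.9 and 1025 RPKM in controls and 3188, 2578 and 2357 with linseed. They were led by the calprotectin genes S100A9 and S100A8, which myeloid cells in general can express, and by the Fc receptor gene FCGR3A, also expressed by natural killer cells. Per 1000 RPKM of these markers NR1H3 was at 0, 0.329 and 0.209 RPKM in controls and 0.504, 0.810 and 0.834 with linseed. The diets did not overlap in these ratios. The part of cell mixture in the NR1H3 difference was not tested.

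PPARG stood beside the same markers in another way. Linseed sheep 3, the library with the most PPARG, had the highest macrophage sum and the lowest epithelial sum, 97.6 RPKM, and its milk proteins took 1.30% of the reads. Control sheep 2, the next for PPARG, had the highest macrophage sum of the controls. Linseed sheep 1 and 2 also had high macrophage sums, 2520 and 3093 RPKM, but little PPARG. Single macrophage markers differed in this. CTSS was at 52.5, 487.6 and 309.4 RPKM in controls and 15.2, 90.2 and 736.2 with linseed. CTSS and MSR1 were lower with linseed in sheep 1 and 2 and higher in sheep 3, as PPARG NM_001100921.1 was. In contrast, 7 of 14 tested macrophage markers were higher in all 3 sheep and 3 lower. The part of cell mixture in the PPARG values was not tested. The 7 matched epithelial markers of 14 summed to 884.9, 517.4 and 428.5 RPKM in controls and 650.5, 943.5 and 97.6 with linseed. The claudin gene CLDN7, CD24 and the keratin gene KRT8 led them. CD24 was lower with linseed in all 3 sheep, as were 26.2% of tested transcripts. Its adjusted p in limma was 0.263 without the block and 0.0461 with it. Of 5 matched fat cell genes of 6, ADIPOQ and PLIN1 were at or near 0 in every library (PLIN1 at most 0.299 RPKM). RETN, the resistin gene, was at 0.54, 19.3 and 2.001 RPKM on the control diet and 69.3, 59.8 and 95.7 on linseed, with an adjusted p in limma of 0.263 without the block and 0.0401 with it. ADIPOR1 had 31.8 ± 3.93 and 26.6 ± 18.3 RPKM (SD, n = 3). Of red cell genes, ALAS2 was at 0 in every library and SLC4A1 reached 0.400 RPKM. Lymphocyte markers, 9 matched of 13, ran from 7.82 to 523.8 RPKM in controls and 75.8 to 129 with linseed, led by the T cell genes CD3E, CD247 and CD2.

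**Figure D2:**
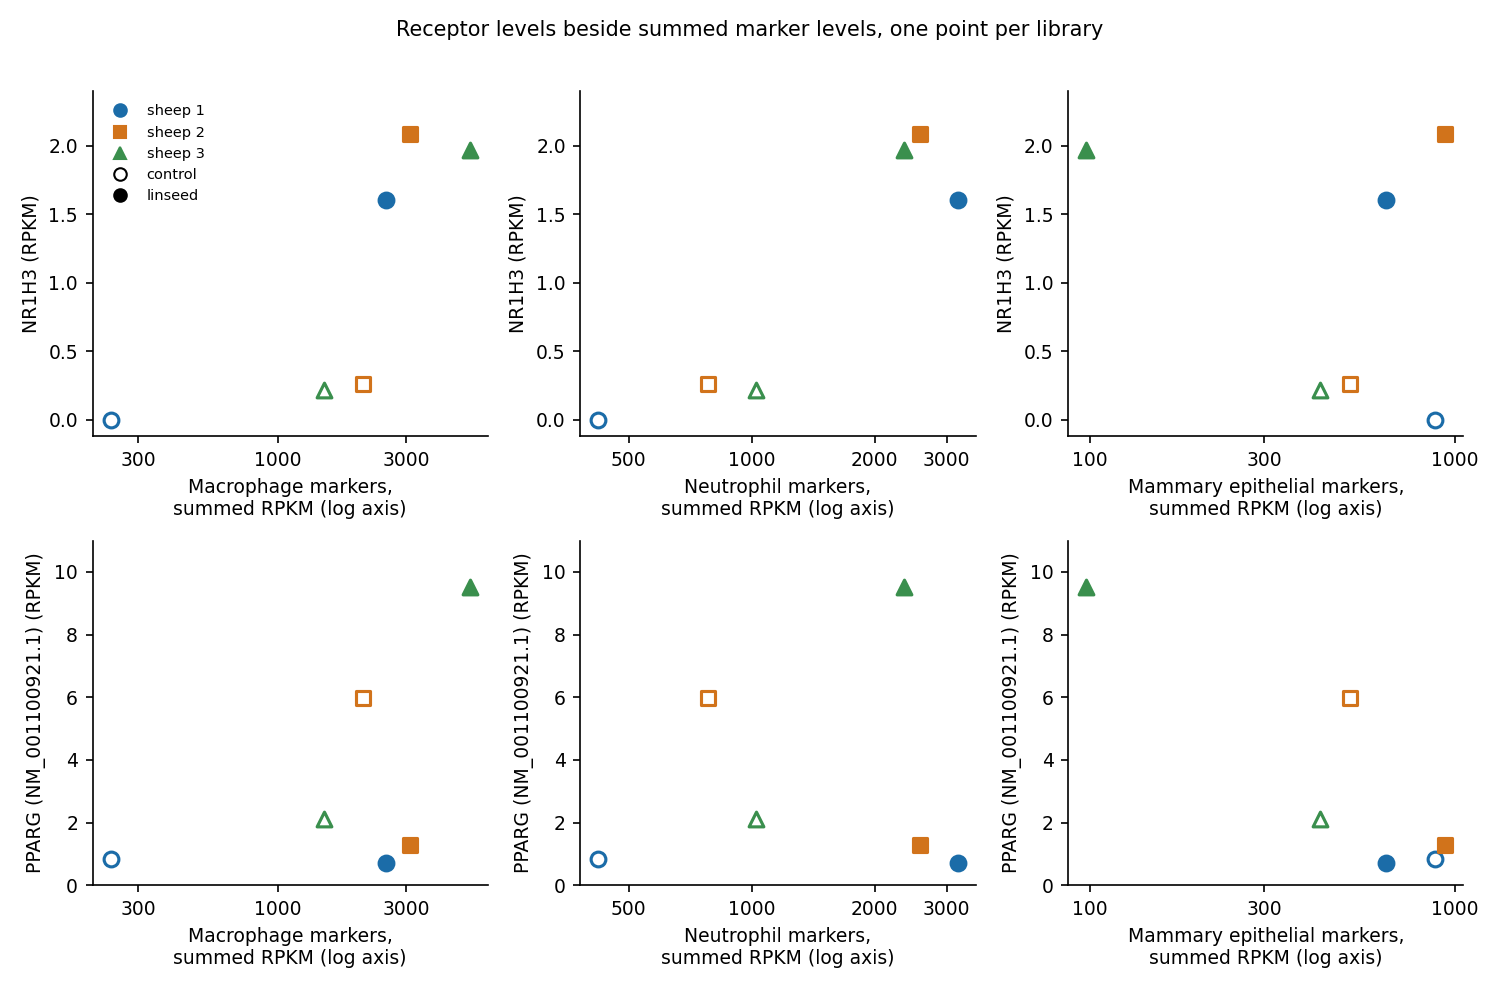
Level of NR1H3 (upper row) and PPARG NM_001100921.1 (lower row) in RPKM against summed RPKM of macrophage, neutrophil and mammary epithelial markers on log axes, 1 point per library, open for control and filled for linseed. The same NR1H3 values stand on the y axis of every upper panel and separate the diets there, whatever the markers. The highest PPARG point is linseed sheep 3, at 5181 RPKM of macrophage and 97.6 RPKM of epithelial markers.

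Genes that LXR is known to control showed no common direction. The list held 24 genes, of which 14 were matched and 10 tested. By limma 0 passed, with 0 higher and 2 lower at an unadjusted p under 0.05, where 8.5% and 7% of all tested transcripts were. In all 3 sheep 2 were higher and 3 lower, where 23% and 26.2% of all tested transcripts were. The median log2 change was -0.22, beside -0.12 over all tested transcripts, and it was 0.43 with voom on the solved reads. Its sign rested on single libraries: it was 0.33 without control sheep 3, 0.12 without linseed sheep 1, -0.79 without control sheep 1 and -0.77 without linseed sheep 3. The cholesterol exporters, the classic targets, were low: ABCA1 averaged 0.50 ± 0.71 RPKM on the control diet and 0.23 ± 0.047 on linseed (SD, n = 3), and ABCG1 1.96 ± 3.01 and 1.16 ± 1.68. ABCG1 had a log2 change of -0.23 ± 0.75 (SE), which turned to 0.09 with quantile normalization and 1.91 with voom. Most of both genes' control signal came from sheep 3, at 1.32 RPKM for ABCA1 and 5.43 RPKM for ABCG1.

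Of the 5 LXR targets of smallest p 0 passed, and their changes went both ways. The stearoyl-CoA desaturase gene SCD, which makes monounsaturated fatty acids, was at 40.5, 17.7 and 22.2 RPKM in controls and 8.39, 6.25 and 2.44 with linseed; the lipoprotein lipase gene LPL at 24.1, 33.0 and 22.7 and then 5.80, 8.06 and 16.8 RPKM. Both had linseed values below all control values, as 7.83% of tested transcripts did, with adjusted p of 0.263 and 0.307 in limma. NPC1, which carries cholesterol out of lysosomes, had a log2 change of -1.07 ± 0.60 (SE), and MYLIP, a ubiquitin ligase that limits cholesterol uptake, -0.98 ± 0.60, with sheep 2 higher on linseed. NPC2, the partner of NPC1, had 0.99 ± 0.64. APOE, LPCAT3, SREBF1 and FASN are also LXR targets; having no matched transcript, they are not analysed here.

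Genes known as PPARG targets went both ways. Leaving out NR1H3, itself a target of PPARG, 23 of 27 listed genes were matched and 17 tested. By limma without the block 0 passed, with 5 higher and 1 lower at an unadjusted p under 0.05, where 8.5% and 7% of all tested transcripts were. In all 3 sheep 5 were higher and 5 lower, where 23% and 26.2% of all tested transcripts were. The linseed values of 5 genes lay above all control values and those of 1 gene below, where 13.3% and 7.83% of tested transcripts did. With the sheep as a block 3 rose and 0 fell, where 1.28% and 1.34% of tested transcripts did. This list, like the others, was chosen with earlier results of these data known, so these counts are descriptions and no test of the list. The median log2 change was -0.52, and it was -0.014 once the trend with transcript length was removed. It was 0.0086 without control sheep 3, -0.11 without control sheep 1, -0.10 without linseed sheep 3 and -0.24 without linseed sheep 1.

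The 3 that passed with the block were SLC27A4, a fatty acid transporter, AGPAT2, an acyltransferase of fat synthesis, and UCP2, a mitochondrial carrier. Their log2 changes were 2.12 ± 0.55, 2.28 ± 0.62 and 2.68 ± 0.82 (SE of the fit without the block), and their adjusted p in limma with the block were 0.0455, 0.0457 and 0.0481. SLC27A4 was at 3.05, 2.54 and 1.70 RPKM in controls and 15.8, 13.6 and 11.99 with linseed. UCP2 was at 10.52, 86.9 and 93.5 RPKM and then 232.3, 317.5 and 337.4. Each of these genes was higher in sheep 1, 2 and 3 alike, unlike PPARG NM_001100921.1.

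ANGPTL4, an inhibitor of lipoprotein lipase that fatty acids induce through PPARs, was at 31.9, 26.9 and 20.2 RPKM in controls and 72.9, 108 and 50.03 with linseed. Its linseed values lay above all control values, as those of 13.3% of tested transcripts did. Its log2 change was 1.47 ± 0.59 (SE), with an adjusted p of 0.292 in limma. CEBPA, a partner factor of PPARG in fat cells, was at 2.23, 10.96 and 22.5 RPKM in controls and 38.1, 47.4 and 20.7 with linseed, and had a log2 change of 1.83 ± 0.77. The lipid droplet coat gene PLIN2 (-0.60 ± 0.60), the carnitine palmitoyltransferase gene CPT1A (-1.17 ± 0.78), which admits fatty acids to mitochondria, and the pyruvate dehydrogenase kinase gene PDK4 (-0.68 ± 0.73) had negative changes that did not pass.

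FABP4, a fatty acid binding protein and a much-used readout of PPARG, was at 54.3, 1192 and 200.2 RPKM in control sheep 1, 2 and 3, then 408.2, 638.5 and 1893 RPKM on linseed. Linseed sheep 3 was highest and control sheep 2 next, the same pair as for PPARG NM_001100921.1. This pair was not particular to PPARG targets. The macrophage marker CTSS, outside the PPARG list, had it too, at 736.2 and 487.6 RPKM. FABP4 had a lower linseed value in sheep 2 and a higher one in sheep 3, as PPARG had, but in sheep 1 FABP4 was 2.89 higher on the log2 scale while PPARG was at -0.10. Its mean log2 change was 1.74 ± 1.02 (SE; adjusted p = 0.410 in limma). FABP5, a relative that carries fatty acids to PPARs, also had its highest values in linseed sheep 3 and control sheep 2, at 2428 and 1668 RPKM. CD36, a fatty acid receptor, had no matched transcript and is not analysed here.

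**Figure D3:**
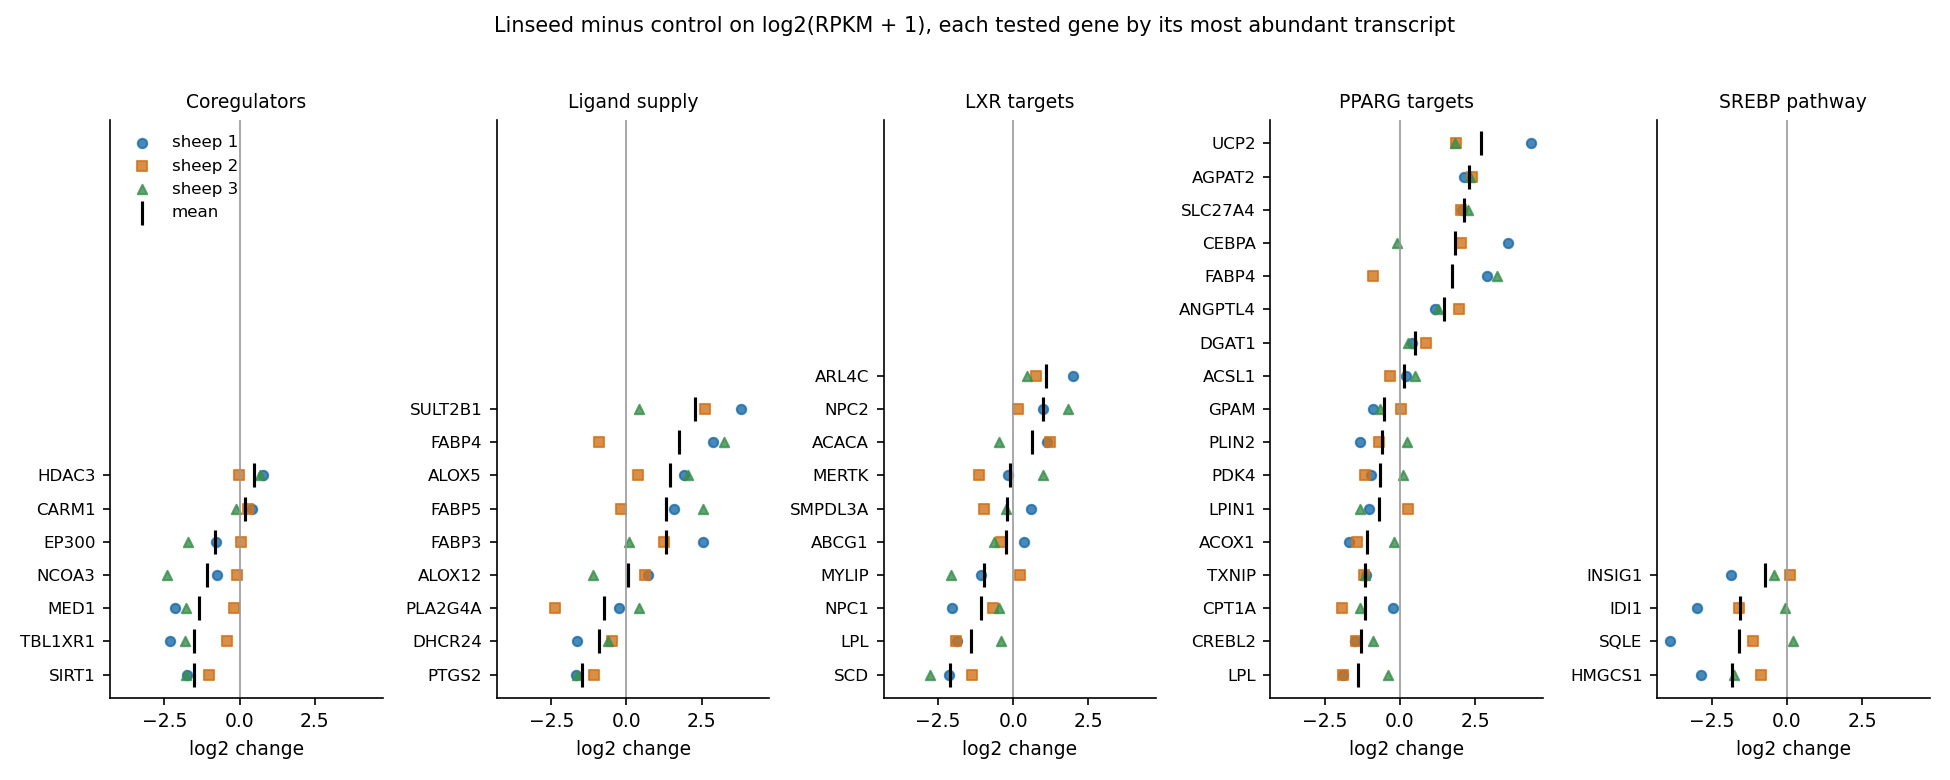
Change from control to linseed on the log2(RPKM + 1) scale (x axis) for each tested gene of 5 lists (y axis), with a symbol per sheep and a bar for the mean of the 3 sheep. SLC27A4, AGPAT2 and UCP2 lie right of 0 in every sheep, SCD and HMGCS1 left of 0, and FABP4 left of 0 in sheep 2 only.

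Genes that supply or remove ligands gave mixed values. Of 18 listed genes 13 were matched and 9 tested, and 0 passed limma, with 2 higher and 1 lower at an unadjusted p under 0.05, where 8.5% and 7% of all tested transcripts were. In all 3 sheep 3 were higher and 2 lower, where 23% and 26.2% of all tested transcripts were. The median log2 change was 1.30, but medians within sheep 1, 2 and 3 were 1.59, -0.18 and 0.41. It was 0.27 without linseed sheep 1, 0.53 without control sheep 3, 0.69 without control sheep 1 and 0.74 with the length trend removed. SULT2B1, which adds sulfate to cholesterol and oxysterols, was at 2.18, 4.23 and 0.98 RPKM in controls and 43.3, 30.9 and 1.65 with linseed. Most of this difference lay in sheep 1 and 2, and the log2 change was 2.28 ± 0.97 (SE). ALOX5, the 5-lipoxygenase of leukotriene synthesis, was at 0.33, 3.21 and 1.74 RPKM in controls and 3.98, 4.45 and 10.3 with linseed. PTGS2, the cyclooxygenase that opens prostaglandin synthesis, was at 2.76, 2.87 and 10.0 RPKM and then 0.17, 0.82 and 2.54. Their log2 changes were 1.44 ± 0.64 for ALOX5 and -1.47 ± 0.65 for PTGS2, and neither passed in limma, both with an adjusted p of 0.314.

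Sterol synthesis genes, which the SREBP factors turn on when cholesterol is short, had negative changes. Of 12 listed genes 4 were matched, all 4 were tested, and 0 passed limma, with 0 higher and 2 lower at an unadjusted p under 0.05, where 8.5% and 7% of all tested transcripts were. In all 3 sheep 0 were higher and 2 lower, where 23% and 26.2% of all tested transcripts were. The median log2 change was -1.57, with -2.92, -0.98 and -0.25 in sheep 1, 2 and 3. It was -1.05 without linseed sheep 1 and -0.64 without both libraries of sheep 1. HMGCS1, which makes HMG-CoA, had the smallest p of the list, at 12.95, 2.17 and 6.13 RPKM in controls and 0.92, 0.76 and 1.11 with linseed (log2 change -1.82 ± 0.64 SE; adjusted p = 0.266 in limma). The other log2 changes were -1.54 ± 0.69 for the isomerase gene IDI1, -1.60 ± 0.81 for SQLE, which forms the squalene epoxide, and -0.73 ± 0.70 for INSIG1, which holds SREBP factors back. SREBF2 had no matched transcript and is not analysed here.

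Among coregulators, the proteins that receptors recruit, 10 of 20 were matched and 7 tested. By limma 0 passed, with 0 higher and 1 lower at an unadjusted p under 0.05, where 8.5% and 7% of all tested transcripts were. In all 3 sheep 0 were higher and 4 lower, where 23% and 26.2% of all tested transcripts were. Their median log2 change was -1.09. It was -0.34 without control sheep 3, -0.44 without both libraries of sheep 3 and -1.74 without control sheep 2. SIRT1, a deacetylase reported to act on LXR and PPARG, was at 8.12, 4.91 and 17.4 RPKM in controls and 1.69, 1.90 and 4.39 with linseed. All its linseed values were lower than its control values, as those of 7.83% of tested transcripts were. Its log2 change was -1.52 ± 0.64 (SE), with an adjusted p of 0.297 in limma. The log2 changes were -1.52 ± 0.82 for TBL1XR1, part of the corepressor complex, -1.37 ± 0.75 for the Mediator subunit gene MED1, -1.09 ± 0.68 for the coactivator gene NCOA3 and -0.83 ± 0.77 for the acetyltransferase gene EP300. After the trend with transcript length was removed the median of the list was -0.55. NCOR1, a main corepressor, had no matched transcript and is not analysed here.

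The genes whose levels were most like those of NR1H3 across the 6 libraries were sought among 5976 genes, each by its most abundant tested transcript. By Pearson's correlation on log2(RPKM + 1), these were C1R, a complement protease (r = 0.994), CDPF1 (0.993), the metalloprotease gene ADAM15 (0.992), PRAM1, an adaptor of myeloid cells (0.992), and MANBAL (0.991). Having been picked for likeness to NR1H3, they share its split by diet. With the sheep as a block limma gave C1R and ADAM15 the adjusted p 0.0441, against 0.263 otherwise. PRAM1 was as scarce as NR1H3, averaging 0.13 ± 0.14 RPKM on the control diet and 2.13 ± 0.15 on linseed (SD, n = 3). For PPARG NM_001100921.1 they were LOC101114089 (0.994), LOC101106042 (0.990), IKBIP (0.987), ADORA3, an adenosine receptor (0.986), and PSMA1, a proteasome subunit (0.986). ADORA3 averaged 25.9 ± 24.5 RPKM on the control diet and 41.0 ± 50.4 on linseed (SD, n = 3). NR1H3 and PPARG correlated with each other at 0.123. With 6 points that share library and depth, and so many genes searched, such correlations are descriptions.

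**Figure D4:**
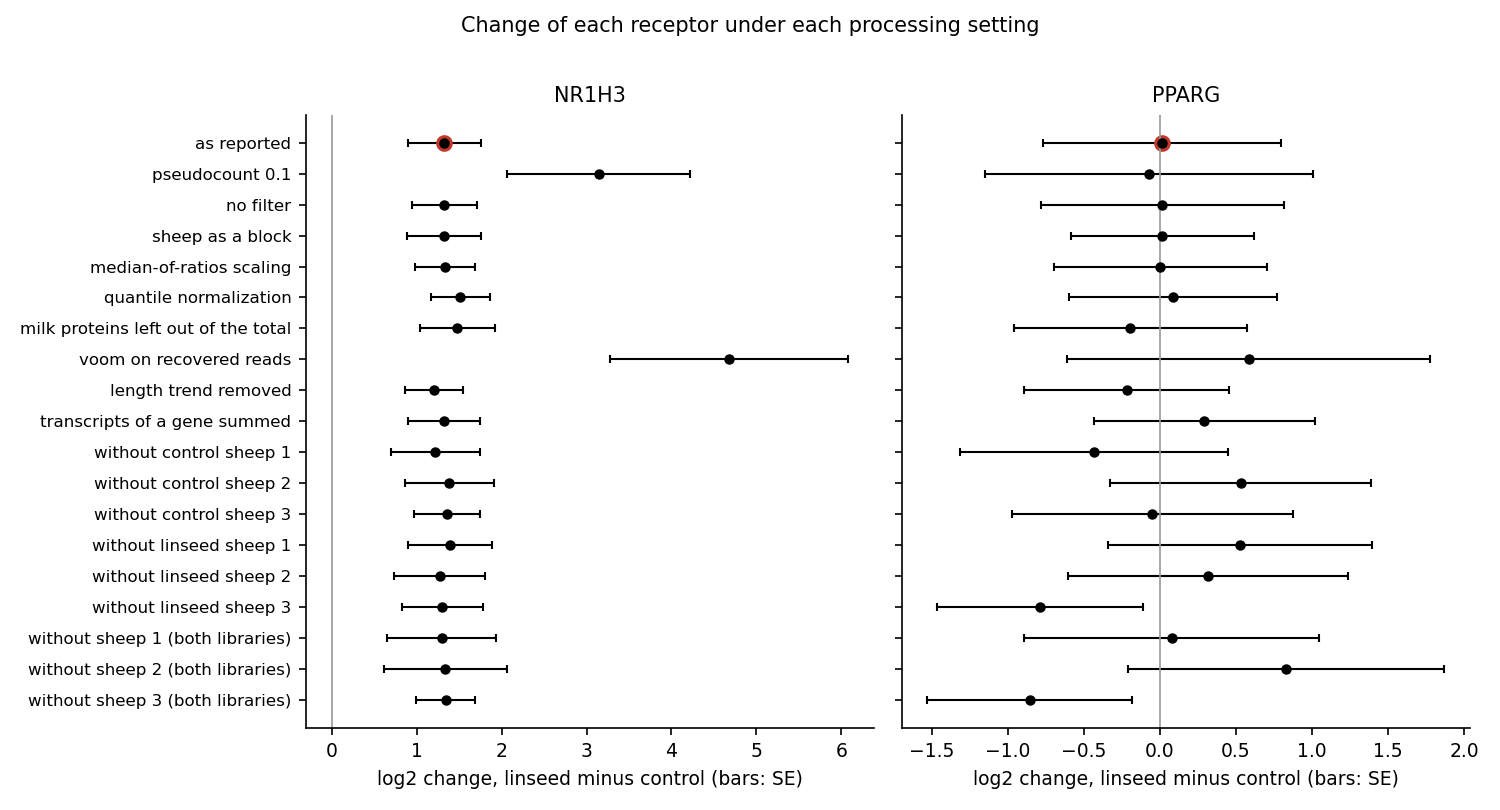
Log2 change of NR1H3 and of PPARG NM_001100921.1 from control to linseed (x axis, bars for 1 SE) under each processing setting and with libraries left out (y axis), the reported fit in red. NR1H3 lies above 0 throughout, from 1.21 to 4.68, and PPARG lies on both sides of 0. Leaving libraries out could not change the sign for NR1H3, whose linseed values all lay above its control values.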

How the data were processed

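RNA was measured in 6 libraries of milk somatic cells, grouped by a title letter (C or L) whose meaning was taken from the series design. The authors deposited RPKM per RefSeq transcript. Per the submitters' processing notes, the authors used Trimmomatic 0.33. Aligner, build and counting tool are named in no header or label and so not given in the sources used here. Symbols came from a RefSeq table of ARS-UI_Ramb_v3.0, used for names alone: 15836 of 49705 transcripts (31.9%) matched, 964 of them with their version.

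Totals, lengths and reads were solved from RPKM steps (tolerance 0.002 reads) and recovered 99.4% to 99.8% of each total; in simulated RPKM, 98.8% of 26123 transcripts with 50 or more reads came back exactly. Intervals are exact Poisson. Transcripts averaging 1 RPKM or more were fitted as log2(RPKM + 1) with limma 3.58.1 in R 4.3.3, with a mean-variance trend, no block and Benjamini-Hochberg adjustment, called at 0.05. The fit was tested on simulated data. In lists a gene stands by the transcript of highest mean, and lists were described, not tested. P-values measure the spread between 3 ewes sampled once per diet.

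The same animals gave both groups, per the labels, so the numbers pair the samples by animal, and a fit with sheep as a block was run beside the one without; it is printed where it changes a call. Deviations of a sheep's libraries correlated at 0.183, 0.246 and 0.396 in sheep 1, 2 and 3, while control sheep 1 correlated at 0.239 with linseed sheep 2; the other unmatched pairs ran from -0.397 to 0.0687.

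Named were all receptor transcripts, measured sister receptors, the 5 members of smallest p in each pathway list and those that passed, a set list of known targets, the 5 genes most like each receptor, and the 3 most abundant members of each cell type list (for milk proteins PAEP, CSN3 and CSN2). The members and lists were chosen with earlier results of these data known. Alternatives were other scalings, pseudocounts and filters, and libraries left out. Results for 2 genes of the sterol list are not reported here, and its counts are without them.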

Additional observations from a re-analysis of the deposited data

How the results depend on the processing

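NR1H3 kept its direction and stayed short of the threshold in every setting run, with log2 changes of 1.21 to 4.68 across settings and 1.22 to 1.39 when a library or a sheep was left out. As all its linseed values lay above all its control values, leaving libraries out could not change that direction. PPARG NM_001100921.1 changed sign with a pseudocount of 0.1 (-0.072), once milk proteins were removed from the totals (-0.19) and with the length trend removed (-0.22), and ran from -0.79 to 0.53 when a library, and from -0.85 to 0.83 when a sheep, was left out; it was 0.58 with voom. The cause was not tested. The shift of NR1H3 against PPARG kept its sign, at 1.03 to 3.21 across settings and 0.51 to 2.19 with libraries left out, with an exact p of 0.5 by sign flips within sheep, where 0.25 is the smallest possible. With the replicate block limma called 416 transcripts in place of 0, neither receptor among them. The block changed no receptor call, and of named genes it changed those of SLC27A4, AGPAT2, UCP2, C1R, ADAM15, CD24 and RETN. It also changed the call of the macrophage marker TREM2, which is outside the set of named genes counted below. Every other setting called 0 transcripts, with 572 to 4628 at an unadjusted p under 0.05. Removing milk proteins from the totals moved the median of all transcripts from -0.12 to -0.28, against which NR1H3 stood at 1.76 and PPARG at 0.09. The filter at 5 RPKM left neither receptor in the fit. Of 96 list medians under other settings, 13 moved by more than the spread between sheep. Of 1051 values of named genes, 991 kept direction and call, 7 passed with the block alone and 53 changed sign, 0 of these being of a gene that passed. With quantile normalization the log2 change was 0.091 for ABCG1, -0.19 for LOC101106042, -0.19 for CD3E. With voom the log2 change was 1.91 for ABCG1, 0.22 for IKBIP, 0.028 for PSMA1. With a pseudocount of 0.1 the log2 change was -0.039 for LOC101114089. Without milk proteins the log2 change was -0.060 for LOC101114089, -0.12 for LOC101106042. With the length trend removed the log2 change was -0.24 for LOC101114089, -0.29 for LOC101106042, -0.086 for ADORA3, -0.069 for CD3E. With median-of-ratios scaling the log2 change was 0.014 for PSMA1. With a library left out, changes ran from -0.83 to 0.57 for ABCG1, -0.78 to 0.81 for LOC101114089, -0.30 to 0.38 for LOC101106042, -0.66 to 0.22 for IKBIP, -0.76 to 1.03 for ADORA3, -0.51 to 0.34 for PSMA1. They ran from -2.38 to 0.37 for CTSS, -1.46 to 0.72 for CLDN7, -1.27 to 1.93 for FCGR3A, -1.52 to 1.49 for CD3E, -1.14 to 1.34 for CD2, -1.002 to 0.080 for ADIPOR1, -0.32 to 2.61 for PAEP. With a sheep left out they ran from -0.53 to -0.021 for ABCG1, -0.93 to 1.02 for LOC101114089, -0.35 to 0.52 for LOC101106042, -0.65 to 0.32 for IKBIP, -0.93 to 1.21 for ADORA3, -0.65 to 0.51 for PSMA1 (0.062 without sheep 1). They ran from -2.07 to -0.24 for CTSS, -1.10 to 0.015 for CLDN7, -0.29 to 0.59 for FCGR3A, -1.53 to 1.21 for CD3E, -1.36 to 1.46 for CD2, -0.91 to 0.016 for ADIPOR1, 0.18 to 1.76 for PAEP. NR1H3 rests on 8 control reads, which limits how finely its control level is known.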
